A study of Mus musculus with 19 samples.

Results

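Gene desert peaks are the ATAC-seq peaks that lie far from any protein-coding gene. A peak was taken when it lay on chromosomes 1 to 19 and its centre was outside every protein-coding gene body and more than 300 kb from every end of such a gene in the RefSeq annotation of GRCm38. Of 90154 peaks in the series, 3079 (3.42%) met this rule. They fell into 402 deserts, each the gap between neighbouring protein-coding genes and named here by those genes. The rule used position and no measured value.

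The cells were neural stem and progenitor cells of single wild type C57BL/6J mouse brains, taken on embryonic day 14 from the ventricular zone. They were either expanded with EGF as floating neurospheres (NSPs) or moved to coated plates and serum-containing medium, in which they turn into astrocytes. The 6 groups were NSPs (labelled 0 h, 3 libraries), 3 libraries after 24 h and 3 after 72 h without TNF, 3 of each of these times with TNF at 50 ng/ml, and 4 libraries after 1 week without TNF. TNF is an inflammatory cytokine, and the design asks which regions open or close during differentiation and how TNF alters this. The study's general methods speak of independent biological experiments, but which brain or culture each library came from is not given, so p-values measure the spread between these libraries.

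In ATAC-seq a transposase cuts open chromatin, and regions bound by regulatory proteins collect reads. Gene deserts are long stretches without coding exons. Many flank genes for developmental regulators and hold distal enhancers, elements that act on a promoter over long distances, beside long non-coding RNA (lncRNA) genes and microRNA clusters. An open desert peak does not show which gene it acts on, and a desert is named here by its flanks only as an address.

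Reads in all peaks ranged from 9640256 to 39349111 per library and reads in desert peaks from 167671 to 656692, with the NSP libraries deepest. NSP replicate 1 stood apart from the other NSP libraries, and values that rest on it are given beside the results. A tag is part of the names of all 10 libraries from 72 h on and of none of the 9 earlier ones, so in 72 h or 1 week against NSPs the tag and the time cannot be told apart. The first-day comparison with NSPs, each TNF comparison and that of 1 week with 72 h stay on 1 side of the tag, while the difference between the TNF effects of both times spans it. The labels were checked at gene-end peaks of marker genes, which gave a mixed picture (means, with no test). Of 6 astrocyte genes with such a peak, the mean went up from NSPs to 1 week at Gfap (108 to 258 normalised reads, by way of 489 at 24 h), Gja1 (91.8 to 148) and Slc1a3 (251 to 330) and down at S100b (562 to 178), Slc1a2 (319 to 250) and Aldh1l1 (89.3 to 68.1). Of 5 progenitor genes, it went down at Hes5 (1976 to 93.0), Mki67 (704 to 396) and Egfr (593 to 513) but not at Sox2 (1258 to 1280) or Nes (435 to 471). No gene-end peak was listed for the astrocyte gene Aqp4, the neuronal gene Rbfox3, the oligodendrocyte genes Mbp, Mog and Sox10, the microglial genes Cx3cr1, Aif1 and Csf1r or the endothelial genes Pecam1 and Cldn5.

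No genome sequence was used, so sequences were taken where RefSeq (GRCm38) gives a miRNA or a promoter window inside a desert. Of 1005 miRNA hairpins in the RefSeq table, 21 lay in a desert within 20 kb of a desert peak, with 38 mature forms. Most belonged to the Mir344 cluster between Gm51483 and Ndn on chromosome 7, where 9 of 12 hairpins had the centre of a desert peak within 250 bp (0.5 to 158 bp). The 9 other miRNA genes lay 1.04 to 16.9 kb from their nearest desert peak. The mature forms of the hairpins under a peak are shown because the peaks on them moved in different directions. The seed, bases 2 to 8, is in capitals.
miR-344-5p: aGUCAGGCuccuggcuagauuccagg
miR-344b-5p: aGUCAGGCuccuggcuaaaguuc
miR-344c-5p: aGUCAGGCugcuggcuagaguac
miR-344d-1-5p: aGUCAGGCugcuggcuauacacca
miR-344d-2-5p: aGUCUGGUugcuggcuauauucca
miR-344d-3-5p: aGUCAGGCuagugguuauacucc
miR-344g-5p: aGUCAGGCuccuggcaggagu
miR-344f-5p: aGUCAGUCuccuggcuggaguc
The 5p arms shared the seed GUCAGGC, with the exceptions of miR-344d-2-5p (GUCUGGU) and miR-344f-5p (GUCAGUC). The 3p arms differed more.
miR-344-3p: uGAUCUAGccaaagccugacugu
miR-344c-3p: uGAUCUAGucaaagccugacagu
miR-344d-3p: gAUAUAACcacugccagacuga
miR-344b-3p: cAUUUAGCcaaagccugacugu
miR-344f-3p: cUCUAGCCaggaccugacuac
miR-344g-3p: cAGGCUCUagccaggggcuuga
By the 3p seed, miR-344 (made by the hairpins Mir344 and Mir344-2) and miR-344c shared GAUCUAG, the 3 miR-344d hairpins shared AUAUAAC, and miR-344b, miR-344f and miR-344g each had a seed of their own. Elsewhere, the desert between Ubash3b and Gm40514 on chromosome 9 holds Mir100hg, the lncRNA that hosts the hairpins of miR-100, let-7a-2 and miR-125b, which are printed because a peak near them changed with TNF.
miR-100-5p: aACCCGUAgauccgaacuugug
let-7a-2-3p: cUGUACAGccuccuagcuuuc
miR-125b-5p: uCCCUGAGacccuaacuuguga

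RefSeq promoter windows run from 250 bases before to 50 after a gene's start (300 bases). Only 27 desert peaks (0.877%) shared 150 bases or more with such a window, against 11.2% of the other autosomal peaks. These 27 peaks covered 29 windows of 28 genes, every one a lncRNA gene. The median GC content of the 29 windows was 48.7%, against 58.7% in lncRNA promoters under other peaks, 62.3% in protein-coding promoters under a peak and 52.7% in all 32851 windows. The median ratio of observed to expected CpG was 0.178, against 0.796 in the protein-coding windows. It was 0.618 in lncRNA promoters under other peaks and 0.384 in all windows. On either strand, AP-1 (TGANTCA) was found in 6.90% of the 29 windows and 7.81% of all windows, the NFI half-site TTGGCA in 24.1% and 14.1%, the homeodomain core TAATTA in 17.2% and 5.29%, the SOX core ACAATG in 27.6% and 12.6%, and TATAAA in 6.90% and 13.6%. No motif contains another, and with 29 windows the shares are a description. The 4 windows printed here were chosen after their values were seen. They are the window under the peak with the highest mean, that under the peak with the surest rise and the surest fall from NSPs to 1 week, and that under the peak with the surest change with TNF at 72 h. Capitals mark a SOX core in Gm33680 (chr12:45466032-45466331, plus strand), a homeodomain core in Gm40604 (chr10:15760024-15760323, minus strand) and in Gm31592 (chr10:91888579-91888878, plus strand), and in A330076H08Rik (chr7:61982306-61982605, minus strand) the letters of miR-344g-5p, since that promoter and the hairpin Mir344g lie under the same peak.
Gm33680: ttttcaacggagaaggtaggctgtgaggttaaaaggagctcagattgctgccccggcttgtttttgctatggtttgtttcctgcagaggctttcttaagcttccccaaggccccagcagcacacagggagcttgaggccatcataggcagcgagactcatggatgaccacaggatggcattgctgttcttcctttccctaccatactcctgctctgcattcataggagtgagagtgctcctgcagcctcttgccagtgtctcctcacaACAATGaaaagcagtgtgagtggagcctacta
Gm40604: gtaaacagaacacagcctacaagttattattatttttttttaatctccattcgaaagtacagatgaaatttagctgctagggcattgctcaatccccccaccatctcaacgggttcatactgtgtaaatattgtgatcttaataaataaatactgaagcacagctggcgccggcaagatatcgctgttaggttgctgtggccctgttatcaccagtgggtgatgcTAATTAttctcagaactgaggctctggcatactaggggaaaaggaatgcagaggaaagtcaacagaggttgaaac
A330076H08Rik: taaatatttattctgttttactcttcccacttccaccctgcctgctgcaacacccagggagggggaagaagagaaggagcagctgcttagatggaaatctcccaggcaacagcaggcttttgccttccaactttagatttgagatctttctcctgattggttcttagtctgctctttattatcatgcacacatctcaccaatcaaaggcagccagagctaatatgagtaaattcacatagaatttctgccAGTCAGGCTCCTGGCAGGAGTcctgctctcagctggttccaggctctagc
Gm31592: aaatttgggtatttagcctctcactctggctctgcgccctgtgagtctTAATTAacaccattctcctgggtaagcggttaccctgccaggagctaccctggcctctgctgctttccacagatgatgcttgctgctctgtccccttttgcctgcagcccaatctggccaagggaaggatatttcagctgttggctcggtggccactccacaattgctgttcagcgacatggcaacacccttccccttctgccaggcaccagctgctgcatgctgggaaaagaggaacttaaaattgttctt

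Desert peaks were sparse. The parts of the gaps between genes that lay more than 300 kb from both flanking genes made up 357.6 Mb of the 19 autosomes. They held 3031 members, or 8.48 peaks per Mb. The rest, from the first to the last protein-coding gene of each chromosome, held 40.7 per Mb and includes the outer 300 kb of each desert. The 48 members in gaps at chromosome ends were left out of this density. The median distance to the nearest protein-coding gene end was 446 kb. There were 1908 members at 300 to 500 kb and 1171 beyond 500 kb, of which 221 lay beyond 1000 kb and 13 beyond 2000 kb. The farthest peak, chr18:27956856-27957356 in the desert between Celf4, which encodes an RNA-binding protein, and Pik3c3, was 2202.6 kb from a gene end. At the limit of the rule, the last peak left out was chr10:57183521-57184021, 299.995 kb from Hsf2 with a mean of 51.7 normalised reads, and the first taken was chr9:3034921-3035421, 300.06 kb from Alkbh8 with a mean of 14.2. By chromosome the density ran from 3.93 per Mb on chromosome 6 to 16.0 per Mb on chromosome 13. Members were unevenly spread over deserts: 61 deserts held 1 peak, the median was 5, and 111 deserts with 10 or more held 1901 members. Neighbouring members of a desert lay a median of 31.6 kb apart, and 392 of 2677 such pairs (14.6%) were under 5 kb apart. A non-coding gene covered 561 members (18.2%), of which 527 were in lncRNA genes, led by Mir100hg with 15 peaks, Gm32647 with 13, Gm13481 with 12 and Gm31870 with 10. Genes of every type were more than 300 kb away for 119 members.

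The level of desert peaks was highest at 24 h. Of all reads in peaks, desert peaks took 1.74, 1.67 and 1.77% in the NSP libraries, 2.03, 1.97 and 2.17% after 24 h and 1.92, 1.95 and 2.05% when TNF was added. Later they took 1.87, 1.85 and 1.83% after 72 h, 1.78, 1.77 and 1.69% when TNF was added, and 1.69, 1.65, 1.74 and 1.66% after 1 week. The libraries of the first day, with or without TNF, thus lay above all others, and the ranges of NSPs, 72 h with TNF and 1 week overlapped. The 72 h libraries lay between these ranges. This share does not depend on the scaling between libraries. The median normalised value over the 3039 members that passed a filter on low reads was 55.2 ± 1.41 in NSPs (SD, n = 3), 66.6 ± 2.10 without and 64.7 ± 2.80 with TNF at 24 h, 54.2 ± 0.515 without and 54.5 ± 1.68 with TNF at 72 h, and 53.8 ± 2.82 at 1 week (n = 4). In the other autosomal peaks that passed it the mean of the library medians stayed between 84.9 and 89.0. When each library was scaled to its total reads, the medians of desert peaks were 51.1, 70.4, 68.8, 60.5, 57.6 and 47.2 in the same order of groups, so that 24 h was again highest and 1 week lowest.

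**Figure D1:**
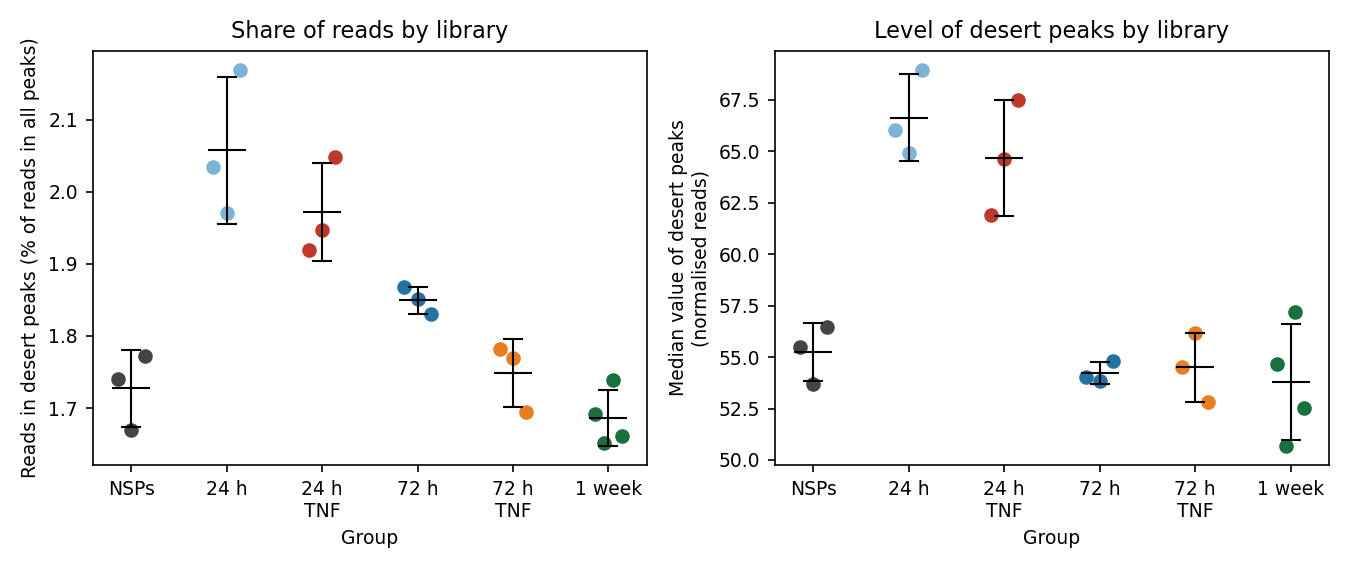
Left, reads in desert peaks as a percentage of reads in all peaks, and right, median normalised value over the desert peaks that passed the filter on low reads, with 1 point per library, the group mean as a long line and bars of 1 SD (neither axis starts at 0). In both panels the libraries at 24 h, with and without TNF, sit above those of the other groups.

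Of the 3079 members, 3039 passed the filter on low reads and were tested, and 40 were not. Among those tested, the group with the highest mean was NSPs for 30.6%, 24 h for 19.2% without and 14.1% with TNF, 72 h for 5.56% without and 7.40% with TNF, and 1 week for 23.2%. In peaks outside genes within 300 kb of a gene the share with the highest mean at 24 h was 11.1%, in gene bodies 10.5%, and in peaks within 1 kb of a gene end 4.27%. Replicates of desert peaks were noisier, with a median SD within groups of 0.353 on the log2 scale, against 0.310 in peaks outside genes within 300 kb, 0.298 in gene bodies and 0.179 at gene ends.

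Which desert peaks opened or closed in the first day was asked by setting 24 h against NSPs. At 24 h 1106 members (36.4% of those tested) were more accessible and 452 (14.9%) less, at an adjusted p under 0.05 in limma-trend. Over all peaks tested, 24.2% were called higher and 23% lower, so the share higher lay above and the share lower below that of all peaks. Groups did not overlap at 978 of the 1106 and 407 of the 452 (88.4% and 90.0%), which was close to the 88.7% and 88.0% of calls over all peaks. Calls with a change over 1 on the log2 scale were 842 higher (27.7% of desert peaks tested, against 16.5% of all peaks) and 245 lower (8.06% against 7.87%). The median log2 fold change over the members was 0.27, against -0.07 over all peaks tested. Scaling to total reads moved the median of all peaks to 0.11 and that of desert peaks to 0.46, with 1305 higher and 301 lower calls, so that higher calls went from 71.0% to 81.3% of the calls. The gap between the 2 medians was between 0.30 and 0.34 under 5 scalings and tools.

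The rise at 24 h was graded with distance. Outside genes, calls of higher accessibility made up 23.9% of peaks within 10 kb of a gene end, 26.3% at 10 to 50 kb, 27.9% at 50 to 100 kb, 32.7% at 100 to 200 kb and 32.8% at 200 to 300 kb. Within the deserts they made up 34.8% at 300 to 500 kb, 38.6% at 500 to 1000 kb and 40.9% beyond (n = 215), while lower calls went from 16.5% through 12.8% to 9.30%. At gene ends themselves 6.31% were higher and 39.3% lower. The limit of 300 kb is therefore a point on a slope and not a step. Desert peaks have low values, so they were also compared with other autosomal peaks inside 4 equal classes of the mean value, a split chosen after the data had been seen. From the lowest to the highest class, 31.5, 37.7, 40.7 and 41.8% of desert peaks were higher at 24 h, against 24.6, 25.5, 26.3 and 18.5% of the other peaks.

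**Figure D2:**
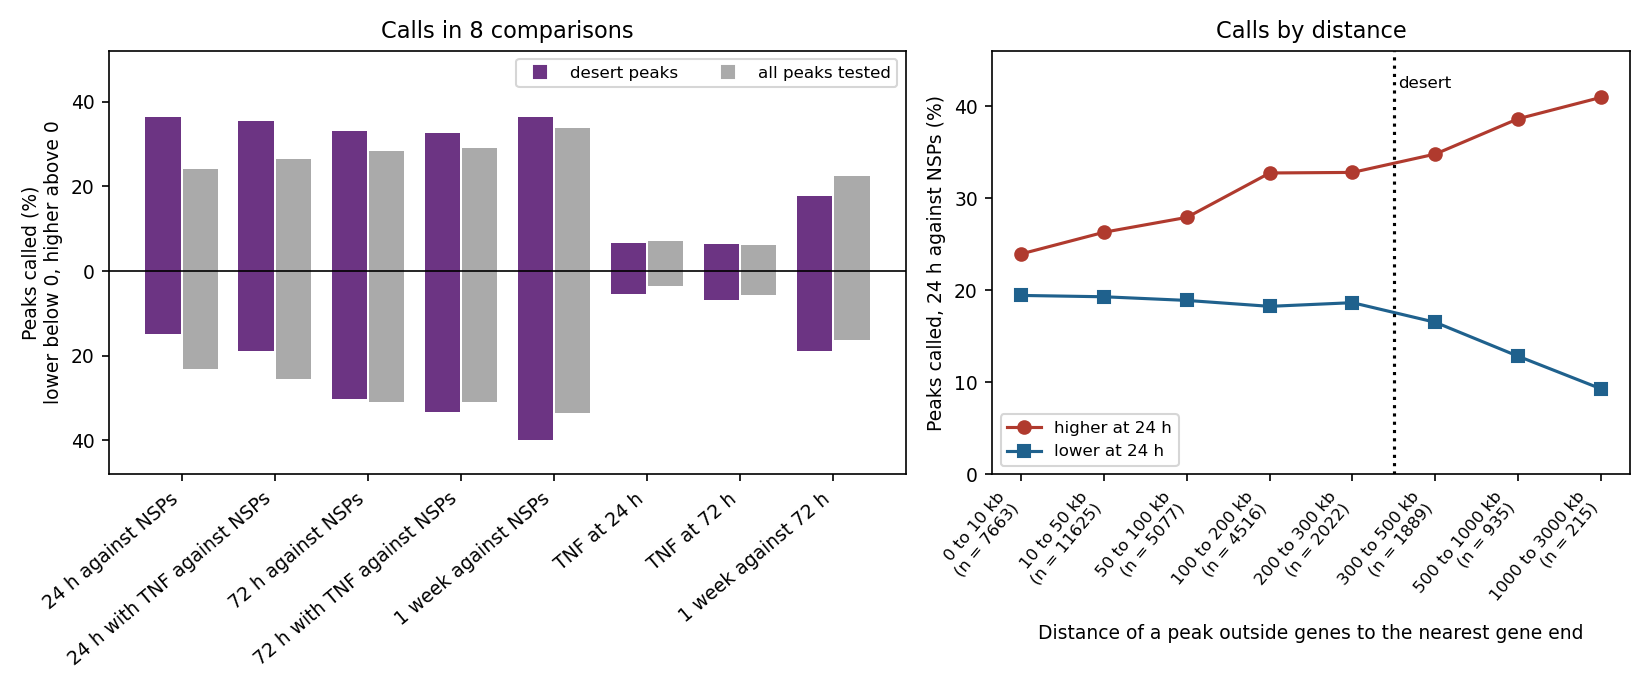
Left, percentage of desert peaks (purple) and of all peaks tested (grey) called higher (above 0) and lower (below 0) in each of 8 comparisons; right, percentage of peaks outside genes called higher and lower at 24 h against NSPs by distance to the nearest protein-coding gene end, with the number tested under each point and a dotted line at 300 kb. Higher calls climb from 23.9% next to genes to 40.9% beyond 1000 kb as lower calls drop to 9.30%.

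The surest rises at single peaks began from a few reads. Peaks were named as surest only where the libraries of the compared groups did not overlap, so that lack of overlap is no result. The peak at chr13:79767620-79768120, 1116 kb from the nearest gene end between Nr2f1, a nuclear receptor of forebrain patterning, and Arrdc3, an arrestin family member, held 12.3, 7.07 and 5.98 normalised reads in NSPs, 322, 317 and 305 at 24 h, 256, 287 and 257 with TNF, 362, 398 and 395 at 72 h, 399.6, 379.9 and 392 with TNF, and 534, 508, 544 and 558 at 1 week. At this peak 1 week lay above all other groups. Its log2 fold change at 24 h was 5.12 ± 0.16 (SE; adjusted p = 2.1e-19 in limma-trend, with Benjamini-Hochberg adjustment over all peaks tested, as for every adjusted p here). The peak at chr8:44466642-44467142 between Adam34l and Fat1, an atypical cadherin of cell polarity, held 18.7, 8.95 and 14.6 in NSPs, 356, 329 and 376 at 24 h, 579, 612 and 567 at 72 h, and 988, 840.1, 1116 and 896 at 1 week. This was a stepwise order without overlap, with log2 fold changes of 4.61 ± 0.17 at 24 h (adjusted p = 1.6e-18) and 6.04 ± 0.16 at 1 week (adjusted p = 3.4e-23). Another of the surest rises, chr18:27928142-27928642, lay in the same desert as the farthest member and went from a mean of 9.77 to 346 at 24 h.

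The surest falls began from high values. The peak at chr13:71507532-71508032 between Adamts16, a secreted metalloprotease, and Irx1, a homeodomain factor of patterning, held 1812, 1397 and 1792 normalised reads in NSPs, 459, 539.9 and 451 at 24 h, 230.3, 283 and 241 at 72 h, and 215, 184, 211 and 251 at 1 week. It had lost most of its signal by 24 h in every library, with a log2 fold change of -1.78 ± 0.14 (adjusted p = 1.2e-11), and the 72 h and 1 week values overlapped. At chr14:71299671-71300171, between Gfra2, a receptor for neurturin, and Gm9195, the NSP libraries held 757, 633 and 767 and the 24 h libraries 169, 198 and 147. This fall of 2.07 on the log2 scale (SE 0.16, adjusted p = 7.0e-12) was followed by 101 to 115 in the 1 week libraries. At chr14:100750083-100750583, between Klf12, a zinc finger repressor, and Prr30, the mean went from 1322 to 512 (log2 -1.37 ± 0.12, adjusted p = 7.4e-11).

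With TNF present, the first day again gave more rises than falls. After 24 h with TNF 1077 members (35.4%) had risen above NSPs and 576 had fallen below them. The background was 26.5% and 25.5% of all peaks tested, with a median of 0.20 against -0.08. This comparison shares the NSP libraries with that of 24 h without TNF, and the effect of TNF is read below from the treated and untreated libraries themselves.

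By 72 h the balance of calls in deserts had moved towards that of all peaks. Higher calls numbered 1004 (33.0% of those tested) and lower calls 918 (30.2%) at 72 h, against 28.3% and 30.9% of all peaks tested, and the median was -0.02 against -0.06. With TNF at 72 h there were 993 higher (32.7%) and 1012 lower (33.3%), against 29.1% and 30.9%. Scaling to total reads changed the 72 h split without TNF from 52.2% to 64.2% higher calls and moved the median of all peaks to 0.21, with that of desert peaks at 0.24. Desert peaks were thus near the background in all 5 scalings, with a gap of the medians between -0.03 and 0.05. Against NSPs these values cannot be told apart from the tag.

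At 1 week desert peaks had diverged from NSPs in both directions. Higher calls numbered 1106 (36.4%) and lower calls 1209 (39.8%), against 33.7% and 33.6% of all peaks tested. The median was -0.14 against 0.01, a gap of -0.15 that shrank to -0.02 when libraries were aligned with loess offsets. Calls with a change over 2 on the log2 scale made up 17.7% (higher) and 13.6% (lower) of desert peaks tested, against 10.6% and 8.51% of all peaks. At 24 h they had made up 10.3% and 0.790%, against 5.38% and 0.705%, and at 72 h 12.1% and 4.67%, against 7.80% and 2.87%. In the peaks called higher at 24 h the median value was 24.5 in NSPs, 76.2 at 24 h, 65.5 at 72 h and 84.1 at 1 week, and in those called lower 158, 73.5, 56.0 and 38.9. The first set was chosen for a low and the second for a high NSP value, so only the values from 72 h on add to the calls. Over all peaks, the set called higher at 24 h had medians of 86.8 at 72 h and 103 at 1 week, and the set called lower 137 and 127. The 1481 desert peaks not called at 24 h had medians of 60.4 at 24 h, 46.5 at 72 h and 39.3 at 1 week. Over all peaks not called, the medians were 72.9, 73.1 and 68.0. These medians hold for the deposited scaling only. The 24 h libraries lie on the other side of the tag from the later ones, and 72 h was not tested against 24 h.

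Among the surest falls to 1 week was again that of chr13:71507532-71508032 (-2.95 ± 0.13, adjusted p = 5.0e-18), whose values are given above and overlapped between 72 h and 1 week. The other 2 peaks named for this fall passed through intermediate levels. The peak at chr4:54636983-54637483, between Tmem38b and Zfp462, a zinc finger gene, held 986, 962 and 1122 normalised reads in NSPs, 338, 357 and 301 at 24 h, 158, 171 and 134 at 72 h and 79.4, 97.4, 90.2 and 108 at 1 week. Each step was lower than the last without overlap, and 1 week against NSPs gave -3.44 ± 0.14 (adjusted p = 1.9e-18). This was the smallest adjusted p among the named falls to 1 week. At chr3:21633839-21634339, between Agtr1b, an angiotensin receptor, and Tbl1xr1, a corepressor subunit, the means went from 691 to 302, 126 and 76.4 (1 week -3.17 ± 0.14, adjusted p = 1.1e-17). Another peak, chr13:25750912-25751412 between Nrsn1 and Hdgfl1, was named for its fall from NSPs to 24 h with TNF and had means of 2178, 804, 407 and 314 in the same order (1 week -2.76 ± 0.15, adjusted p = 3.9e-16).

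The later part of the course was asked by setting 1 week against 72 h, a comparison within 1 tag. Of the members, 539 (17.7%) were higher at 1 week and 570 (18.8%) lower, against 22.5% and 16.2% of all peaks tested. This split depended most on the scaling: higher calls were 48.6% of the calls, 20.0% with total reads (median of all peaks -0.31, of desert peaks -0.42) and 61.5% with loess offsets (0.02 and 0.05). No direction can therefore be given for desert peaks as a class between 72 h and 1 week. The 539 had median values of 32.9 in NSPs, 92.2 at 24 h, 81.5 at 72 h and 166 at 1 week, and the 570 of 86.5, 69.4, 52.7 and 25.9. Both sets were chosen by their 72 h and 1 week values, so the step between these adds nothing to the calls. The medians hold for the deposited scaling only.

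Single peaks changed far beyond these shifts. At chr13:11099311-11099811, between Chrm3, a muscarinic receptor, and Ryr2, a calcium release channel, the 72 h libraries held 175, 177 and 227 normalised reads and the 1 week libraries 627, 623, 671 and 505, up from 16.4, 19.8 and 21.9 in NSPs. The rise after 72 h was 1.65 ± 0.17 (adjusted p = 4.5e-08). At chr1:35311623-35312123, between Plekhb2 and the heparan sulfate sulfotransferase gene Hs6st1, 84.9, 82.5 and 82.8 at 72 h became 372, 317, 412 and 344 (2.09 ± 0.19, adjusted p = 6.9e-09). In the other direction, chr1:42230537-42231037, between Tmem182 and Pou3f3, a POU factor of neural progenitors, held 144, 115 and 129 at 72 h and 22.9, 18.7, 28.6 and 25.7 at 1 week, having been 112, 94.2 and 88.4 in NSPs (1 week against 72 h -2.39 ± 0.21, adjusted p = 4.5e-09). It did not pass the test at 24 h or 72 h against NSPs. Also late, chr18:83399373-83399873 between the zinc finger genes Zfp516 and Tshz1 held 359, 421 and 322 at 72 h and 115, 130.1, 134 and 168 at 1 week (-1.42 ± 0.15, adjusted p = 5.5e-08).

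**Figure D3:**
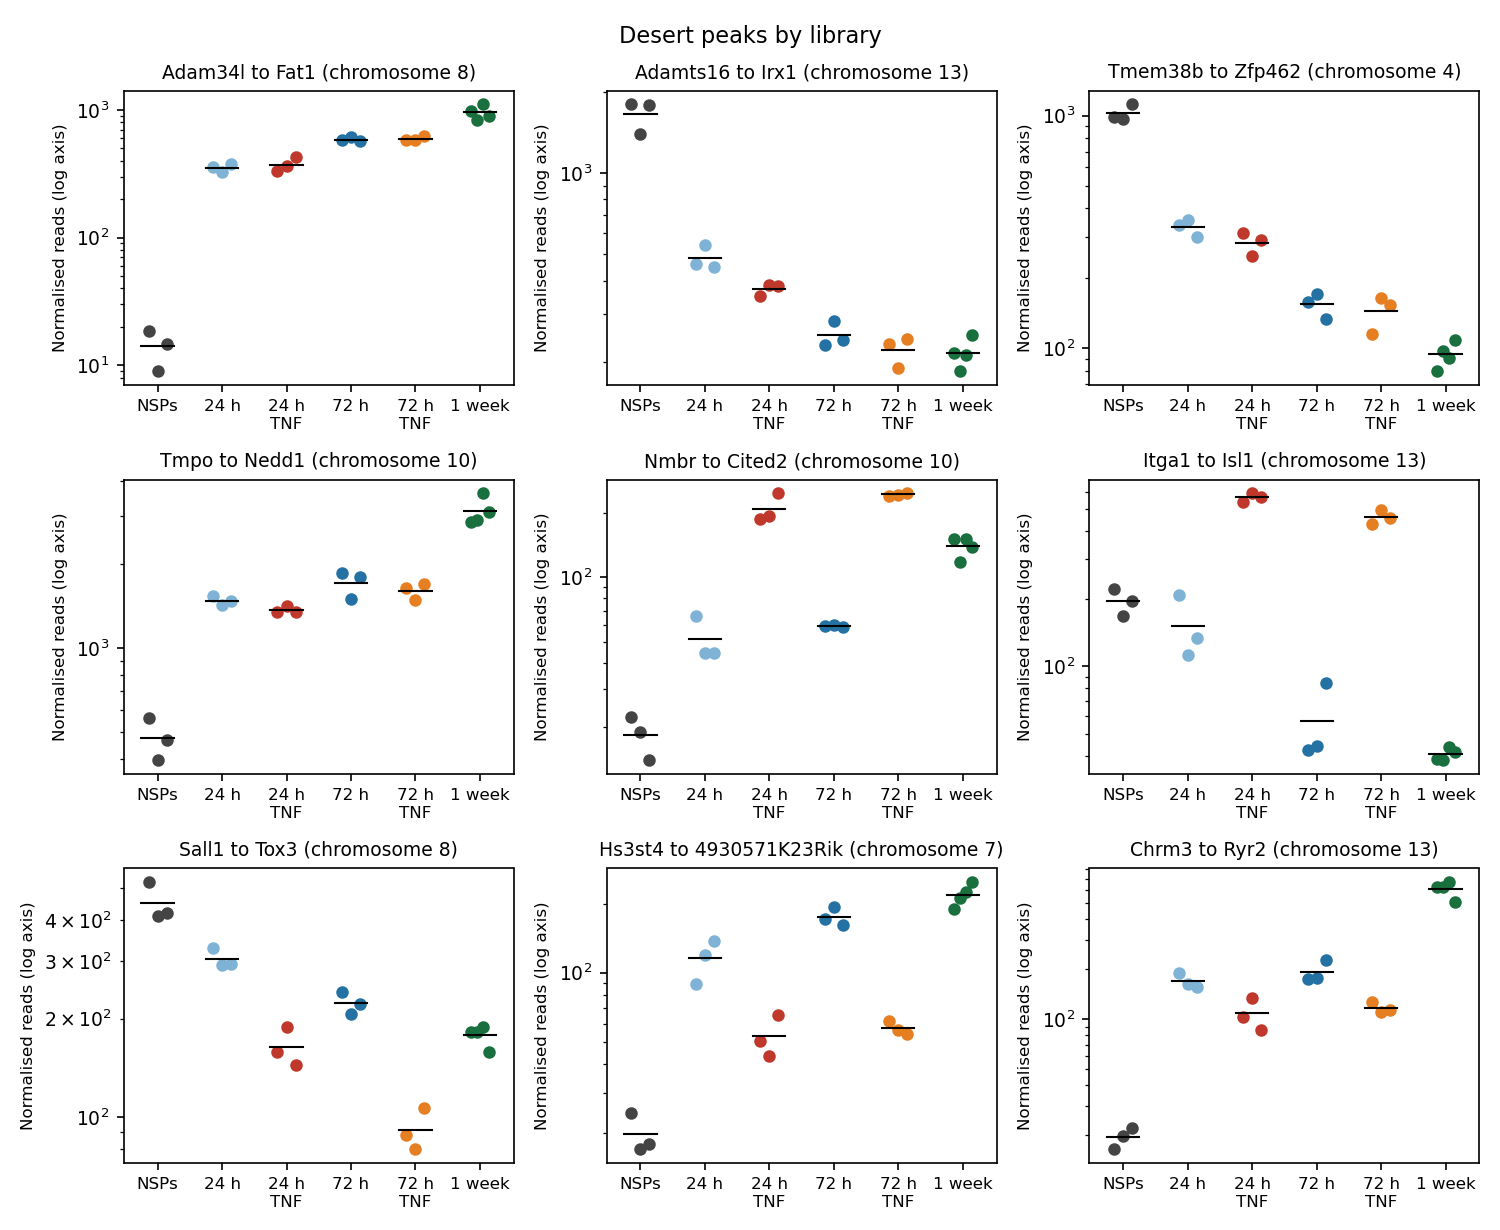
Normalised reads (log axes) in every library at 9 desert peaks named by their flanking genes, with 1 point per library and a line at the group mean. The upper row shows a rise and falls over the whole course, the middle row a peak that reached a mean of 3113 at 1 week and the peaks that rose with TNF beside Cited2 and Isl1, and the lower row peaks that fell with TNF and a peak that rose after 72 h.

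The effect of TNF was asked at each time between treated and untreated libraries. On the first day TNF raised 201 members (6.61%) and lowered 165 (5.43%), against 7.06% and 3.53% of all peaks tested. By 72 h it had raised 193 (6.35%) and lowered 205 (6.75%), against 6.24% and 5.55%. The medians over the members were -0.13 at 24 h and -0.07 at 72 h, against -0.03 and 0.03 over all peaks. The gap was between -0.11 and -0.10 at 24 h and between -0.10 and -0.06 at 72 h under 5 scalings and tools. Scaling to total reads changed the 72 h split from 48.5% to 35.8% higher calls. In the highest of the 4 classes of mean value TNF calls were more frequent in both directions, with 12.0% of desert peaks higher and 15.8% lower at 24 h, against 6.99% and 4.61% of other autosomal peaks. These counts moved with single libraries. The 201 became 132 without 24 h replicate 2 and 106 without 24 h TNF replicate 3. The 165 became 76 without 24 h replicate 1, 100 without 24 h TNF replicate 1 and 89 without 24 h TNF replicate 3. The 205 became 125, 133 and 123 without 72 h replicates 1, 2 and 3, and 132 and 130 without 72 h TNF replicates 1 and 3.

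The TNF fold changes of the 2 times come from libraries that are not shared. The calls are not independent, since all 19 libraries share 1 estimate of the spread per peak. Of those higher, 108 were called at both times, 53.7% of the 24 h and 56.0% of the 72 h list, against 51.7% and 58.5% over all peaks. Of those lower, 71 were called at both, 43.0% and 34.6%, against 52.7% and 33.5%. At 72 h 197 of the 201 peaks higher at 24 h (98.0%, against 96.0% over all peaks) had a positive log2 fold change, with a median of 0.80, and 156 of the 165 lower at 24 h (94.5%, against 95.4%) a negative one, with a median of -0.58. For rises, and for the direction of change at 72 h, the persistence of TNF calls in deserts was thus near that of all peaks. Of the falls at 24 h a smaller share was called again in deserts (43.0% against 52.7%), a difference that was not tested. The difference between the effects at the 2 times was called at 0 desert peaks in limma-trend, against 0% higher and 0.00112% lower of all peaks tested. At an unadjusted p under 0.05 there were 115 higher and 91 lower desert peaks, edgeR called 0, DESeq2 2, and limma-trend on the 12 libraries of the compared groups alone 4.

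The surest rises with TNF were seen at both times. At chr10:16878150-16878650, 844.8 kb from the nearest gene end between Nmbr, a bombesin-type receptor, and Cited2, a transcriptional coregulator, the 24 h libraries held 66.0, 44.3 and 44.3 normalised reads and those with TNF 188, 193 and 248. At 72 h they held 59.2, 59.8 and 58.6 without and 240.5, 244 and 248 with TNF. The changes with TNF were 2.02 ± 0.21 at 24 h (adjusted p = 9.2e-08) and 2.03 ± 0.21 at 72 h (adjusted p = 1.0e-07). Without TNF the peak stood at 118 to 152 at 1 week.

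At chr15:62328228-62328728, 338 kb from the proto-oncogene Myc, 28.5, 44.3 and 59.1 at 24 h became 207, 189 and 162 with TNF (2.11 ± 0.21, adjusted p = 7.2e-08), and 99.1, 88.5 and 71.4 at 72 h became 308, 343 and 329 (1.92 ± 0.21, adjusted p = 3.8e-07). The whole desert between Myc and Gsdmc had 5 higher and 0 lower calls at 24 h and 7 and 2 at 72 h, of 31 peaks. At chr6:93266804-93267304, between Adamts9, a metalloprotease, and Magi1, a scaffold protein, 107, 128 and 112 became 337, 350.1 and 389 at 24 h (1.62 ± 0.15, adjusted p = 2.1e-08), and the mean went from 138 to 314 at 72 h (1.19 ± 0.15, adjusted p = 3.5e-06).

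At chr13:115414053-115414553, between Itga1, an integrin subunit, and Isl1, a LIM homeodomain factor, TNF was set against a loss of signal. NSPs held 221, 168 and 195, the 24 h libraries 208, 112 and 134 against 538, 593 and 568 with TNF, and the 72 h libraries 42.5, 44.3 and 84.1 against 432, 498 and 456. At 1 week, without TNF, 38.2 to 44.0 remained. The change was 1.94 ± 0.21 at 24 h (adjusted p = 2.7e-07) and 3.07 ± 0.21 at 72 h (adjusted p = 9.4e-11), and the difference between the times, 1.13 ± 0.30, had an adjusted p of 0.36. At chr16:86516156-86516656, beside the aggrecanase gene Adamts5, 189, 199 and 204 at 72 h became 454, 494 and 554 (1.34 ± 0.14, adjusted p = 1.6e-07).

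The surest falls with TNF included peaks that had opened and peaks that had closed since the NSP stage. At chr1:73545389-73545889, between Tnp1 and Tns1, which encodes the adhesion protein tensin 1, NSPs held 56.1 to 77.1, the 72 h libraries 703, 573 and 639.9, those with TNF 255, 297 and 287, and the 1 week libraries 988 to 1123 (TNF at 72 h -1.19 ± 0.14, adjusted p = 1.0e-06). At chr7:124828050-124828550, beside the heparan sulfate enzyme gene Hs3st4, 171, 193 and 161 at 72 h became 61.7, 56.2 and 54.0 with TNF (-1.59 ± 0.21, adjusted p = 6.6e-06), again at a peak low in NSPs. At chr8:89476918-89477418, between the zinc finger gene Sall1 and the HMG-box gene Tox3, the signal fell from 413 to 523 in NSPs to 242, 207 and 222 at 72 h and was lower still with TNF, at 88.5, 79.8 and 107 (-1.28 ± 0.15, adjusted p = 7.3e-07). At chr15:51271516-51272016, between Trps1, a GATA-type repressor, and Eif3h, 279, 240.5 and 239 at 24 h became 108, 99.1 and 109 (-1.25 ± 0.20, adjusted p = 1.1e-04). At chr18:13374120-13374620 beside Zfp521, a zinc finger gene, 330.2, 316 and 342 became 188, 192 and 172 (-0.84 ± 0.13, adjusted p = 6.8e-05).

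Some peaks rose with TNF and later without it. At chr13:78679425-78679925, the second named peak between Nr2f1 and Arrdc3, the means were 145 in NSPs, 442 at 24 h, 605 with TNF, 350.2 at 72 h, 664 with TNF and 744 at 1 week. Here TNF gave 0.45 ± 0.11 at 24 h (adjusted p = 0.0082) and 0.92 ± 0.11 at 72 h (adjusted p = 2.2e-06), and 1 week lay 1.08 ± 0.11 above 72 h (adjusted p = 3.1e-08).

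The strongest desert peaks were of several kinds. The highest mean was that of chr5:85239594-85240094, 772 kb from Cenpc1, a centromere protein gene, with group means between 1694 and 2361 and a rise of 0.39 ± 0.14 at 24 h (adjusted p = 0.025). At chr10:92242853-92243353, between Tmpo and Nedd1, the means were 473 in NSPs, 1480.1 at 24 h, 1719 at 72 h and 3113 at 1 week (1 week against NSPs 2.72 ± 0.11, adjusted p = 7.4e-19), while a neighbour in that desert, chr10:91719824-91720324, fell to 1075 at 72 h from 1543 (-0.50 ± 0.13, adjusted p = 0.0016) and further with TNF, to 810.4 (-0.41 ± 0.13, adjusted p = 0.041). The peak chr18:85697916-85698416, between Fbxo15 and Neto1, fell from 2550.1 to 646 at 1 week (-1.97 ± 0.24, adjusted p = 3.4e-08) with NSP libraries at 3649.8, 1727 and 2273. A dip at 24 h and higher values at 1 week than at 72 h were seen at chr18:68976366-68976866, 367 kb from Tcf4, a basic helix-loop-helix factor, with means of 1824, 1199.8 at 24 h, 1254 at 72 h and 1553 at 1 week, and at chr15:62903024-62903524, beyond Myc, with 1726, 1061, 918 and 1571. At the former 1 week against NSPs gave -0.23 (adjusted p = 0.074), and it was called lower with loess offsets (-0.42), total-read scaling (-0.31) and edgeR (-0.27) and without 1 week replicate 3 (-0.30), so a full return cannot be stated. In the latter 24 h against NSPs gave -0.69 ± 0.13 (adjusted p = 7.5e-05) and 1 week against 72 h 0.77 ± 0.12 (adjusted p = 2.0e-05). At 1 week against NSPs it gave -0.12 ± 0.12 (adjusted p = 0.39), 0.03 without NSP replicate 1 and -0.30 with loess offsets, where it was called lower (adjusted p = 0.0011).

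Within a desert, peaks did not move as a block. Of 110 deserts with 10 or more tested members, 98 had calls in both directions at 24 h and 108 at 1 week against NSPs. At 24 h 83 of the 110 had more higher than lower calls and 17 more lower, and the median was above 0 in 78. At 1 week the median was above 0 in 44. For neighbouring members, of pairs under 5 kb apart with both called at 24 h, 103 of 122 (84.4%) had the same direction, against 67.3% at 5 to 100 kb and 68.0% beyond 100 kb. At 24 h 71.0% of all desert calls were higher, so a share well above 50% is no sign of likeness by itself. At 1 week, with the directions nearly balanced, the shares were 70.6, 57.8 and 49.7%. With TNF at 24 h few pairs were called, and 5 of 8 under 5 kb and 27 of 39 at 5 to 100 kb had the same direction. Pairs under 5 kb can share a single broad element.

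The 6 deserts with the most members differed among themselves. Between Nr2f1 and Arrdc3, with 33 members, 15 were higher and 1 lower at 24 h, and 16 and 13 at 1 week. The desert beside Efnb2, an ephrin ligand, had 18 higher and 3 lower of 32 at 24 h. Beside Sox2, the stem cell factor, 11 were higher and 5 lower of 31 at 24 h, and 17 and 9 at 1 week. The desert between Zeb2, a repressor of the zinc finger homeobox family, and Acvr2a, an activin receptor, had 9 and 6. Falls outnumbered rises beyond Myc, with 7 higher and 10 lower of 31, and beside the proliferation marker gene Mki67, with 3 and 10 of 30.

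By median change at 24 h the highest deserts were those between Pabpc4l and Pcdh18, a protocadherin (11 higher, 0 lower of 16 tested, median 1.77), Nmbr and Cited2 (16 and 2 of 24, 1.31) and Ipmk and Zwint (10 and 1 of 14, 1.29). Among the lowest were those on either side of Zfp608, between Csnk1g3 and Zfp608 (2 and 7 of 14, -0.91) and between Zfp608 and Gramd3 (3 and 13 of 26, -0.54). With TNF at 72 h, the lowest desert was that between Gja1, which encodes the astrocyte gap junction protein connexin 43, and Hsf2 (0 higher and 7 lower of 16, median -0.71), which at 24 h with TNF had 1 higher and 5 lower (-0.45). The desert between Marcks and Rfpl4b followed with 1 and 7 of 26 (-0.50). Beside Myc on its other side, from A1bg, TNF at 72 h raised 4 of 13 and lowered 0.

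**Figure D4:**
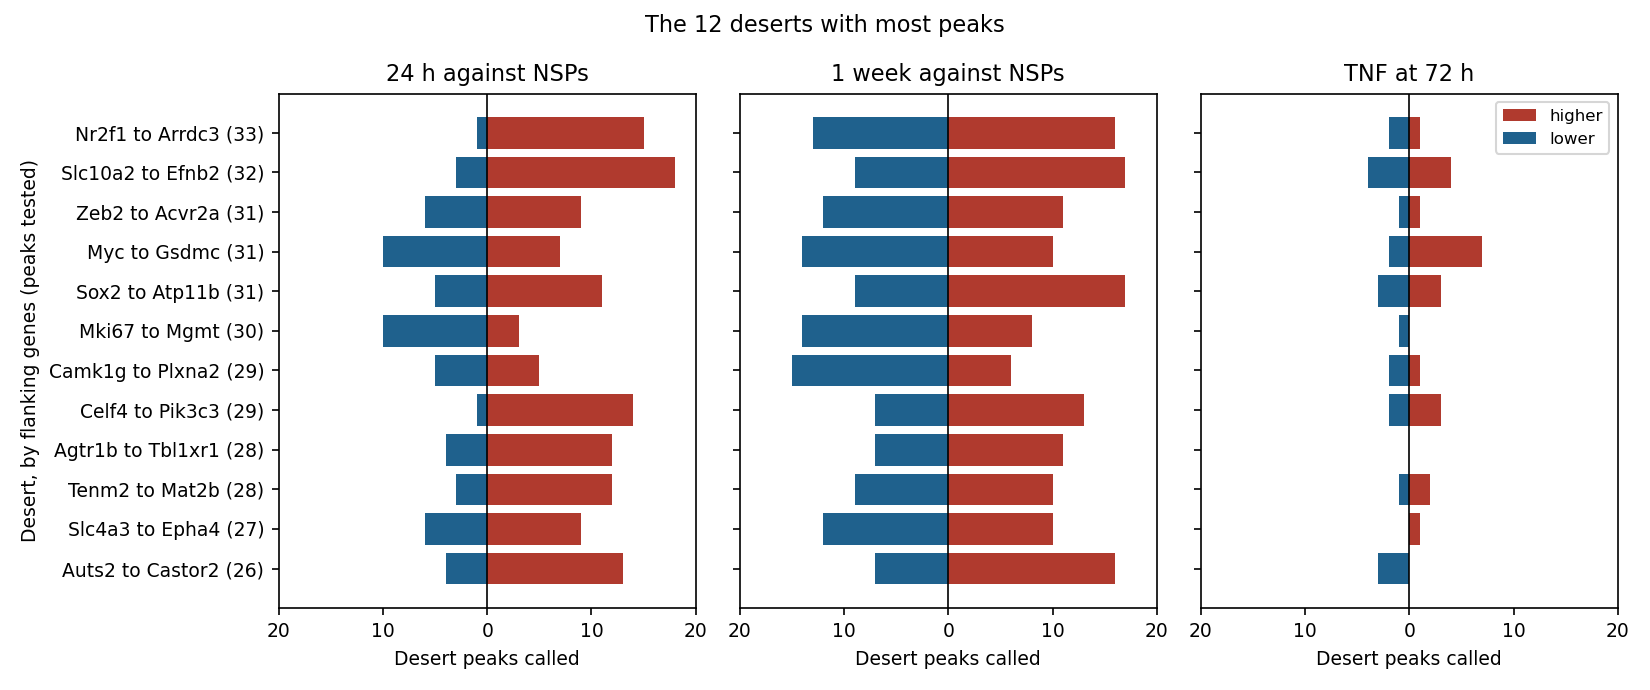
Number of desert peaks called higher (red, to the right) and lower (blue, to the left) in each of the 12 deserts with most peaks, for 24 h against NSPs, 1 week against NSPs and TNF at 72 h, with the number tested in parentheses. Most of the 12 have calls in both directions, with 15 higher and 1 lower at 24 h between Nr2f1 and Arrdc3 and 3 higher and 10 lower beside Mki67.

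The peak with the highest mean in each of these 6 deserts gave changes at 1 week that in several cases rested on NSP replicate 1. At chr8:6207545-6208045, beside Efnb2, the NSP libraries held 793, 232 and 237 and the 1 week libraries 512, 398, 636 and 543. The change at 1 week was 0.55 ± 0.25 (adjusted p = 0.05, not called) with all libraries and 1.13 (adjusted p = 3.7e-09) without NSP replicate 1. At chr3:35341134-35341634, beside Sox2, NSPs held 1858, 977 and 987 and the 1 week libraries 886 to 1029.9, and -0.33 ± 0.14 (adjusted p = 0.043) became -0.02 (adjusted p = 0.85). At chr13:80557100-80557600 NSPs held 398, 664 and 743, and 0.49 ± 0.15 at 1 week (adjusted p = 0.0064) became 0.22 (adjusted p = 0.12). The peak at chr7:136081879-136082379, beside Mki67, dipped from a mean of 599 in NSPs to 426 at 24 h (-0.49 ± 0.11, adjusted p = 5.4e-04) and stood at 656 at 1 week. At chr2:48186589-48187089, beside Zeb2, the means were 420.2 in NSPs and 620.3 at 1 week (0.59 ± 0.13, adjusted p = 1.8e-04).

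Flanking genes were also grouped by lists, of neural and glial transcription factors, of cell adhesion and synaptic genes, and of signalling factors. Deserts flanked by a listed transcription factor (43 of 113 listed genes, 46 deserts, 492 peaks tested) had 131 higher (26.6%) and 91 lower calls (18.5%) at 24 h against NSPs. At 1 week against NSPs they had 152 higher (30.9%) and 221 lower (44.9%). Deserts flanked by an adhesion or synaptic gene, such as protocadherins and cadherins (48 of 77 genes, 61 deserts, 485 peaks), had 203 higher (41.9%) and 46 lower (9.48%) at 24 h, with a median of 0.52 against 0.03 beside the transcription factors. Signalling genes flanked few (8 of 41 genes, 61 peaks), with 26 higher and 11 lower at 24 h. Deserts with no listed gene (2001 peaks) had 746 higher (37.3%) and 304 lower (15.2%). Over all peaks tested the shares were 24.2% and 23% at 24 h and 33.7% and 33.6% at 1 week. TNF at 24 h raised 30 (6.10%) and lowered 29 (5.89%) beside transcription factors, and raised 30 (6.19%) and lowered 27 (5.57%) beside adhesion genes. These shares lay near the 6.61% and 5.43% of all desert peaks, with 7.06% and 3.53% over all peaks tested. A desert flanked by genes of several lists counted in each.

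Over the Mir344 cluster, whose sequences are printed above, the desert runs from 61113705 to 62348276 on chromosome 7 (1.23 Mb) and ends at Ndn, the imprinted gene for necdin in the region homologous to that of Prader-Willi syndrome. All 13 of its members were tested. Against NSPs, 7 rose and 1 fell by 24 h and 4 rose and 6 fell by 1 week, and 1 week against 72 h gave 3 and 4. Over all peaks the shares were 24.2% and 23% at 24 h and 33.7% and 33.6% at 1 week, so with 13 members the 1 week counts lie near the background. Some of the hairpins give mature forms with the same letters, so reads may be split between copies and single values are uncertain. How uniquely reads map at these peaks was not tested. The 9 peaks on hairpins were taken by position.

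The members of a seed group did not move together. The peak on Mir344d-1 held 33.9, 55.6 and 44.5 normalised reads in NSPs, a mean of 204 at 24 h and 341, 298, 354 and 371 at 1 week, a rise in every library (1 week against NSPs 2.93 ± 0.16, adjusted p = 1.5e-15). On Mir344d-2, whose 3p form has the same letters, 91.1, 102 and 87.7 became 184, 171 and 230.3 at 24 h (1.04 ± 0.21, adjusted p = 1.3e-04) and 66.2 to 135 at 1 week, which overlapped NSPs. On Mir344d-3 the means were 41.9 in NSPs, 54.3 at 24 h and 61.4 at 1 week, and neither difference from NSPs passed the test. Of the hairpins with the seed GAUCUAG, the peak on Mir344-2 rose from 715 to 1092 at 1 week (0.61 ± 0.10, adjusted p = 5.6e-06), while those on Mir344c (842 to 606, -0.49 ± 0.11, adjusted p = 3.5e-04) and Mir344 (554 to 368, -0.54 ± 0.15, adjusted p = 0.0024) fell, the last with NSP libraries at 367, 604 and 689.7 that overlapped 1 week.

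At the Ndn end of the cluster the peaks closed late. The peak on Mir344g and the promoter of A330076H08Rik held 188, 198 and 209 in NSPs, 337, 336 and 384 at 24 h, 95.2, 147 and 121 at 72 h and 51.1, 35.1, 33.0 and 61.1 at 1 week. It rose at 24 h (0.83 ± 0.21, adjusted p = 0.0016) and was far below NSPs at 1 week (-2.16 ± 0.19, adjusted p = 5.9e-11). The peak on Mir344f held 107, 130.0 and 126 in NSPs and 16.8, 15.6, 19.8 and 13.9 at 1 week (-2.81 ± 0.26, adjusted p = 1.2e-10). TNF lowered it at 72 h, from 45.0, 76.6 and 84.1 to 26.8, 56.2 and 28.8, with overlapping libraries (-0.89 ± 0.28, adjusted p = 0.033). The peak on Mir344b rose with TNF at 24 h, from 219, 162 and 160.1 to 252, 289.8 and 275 (0.60 ± 0.16, adjusted p = 0.013). At the other end, 1.51 kb from the peak on Mir344d-1, a peak with no hairpin went from a mean of 35.8 in NSPs to 320.3 at 24 h and 511 at 1 week (3.88 ± 0.18, adjusted p = 1.2e-17).

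**Figure D5:**
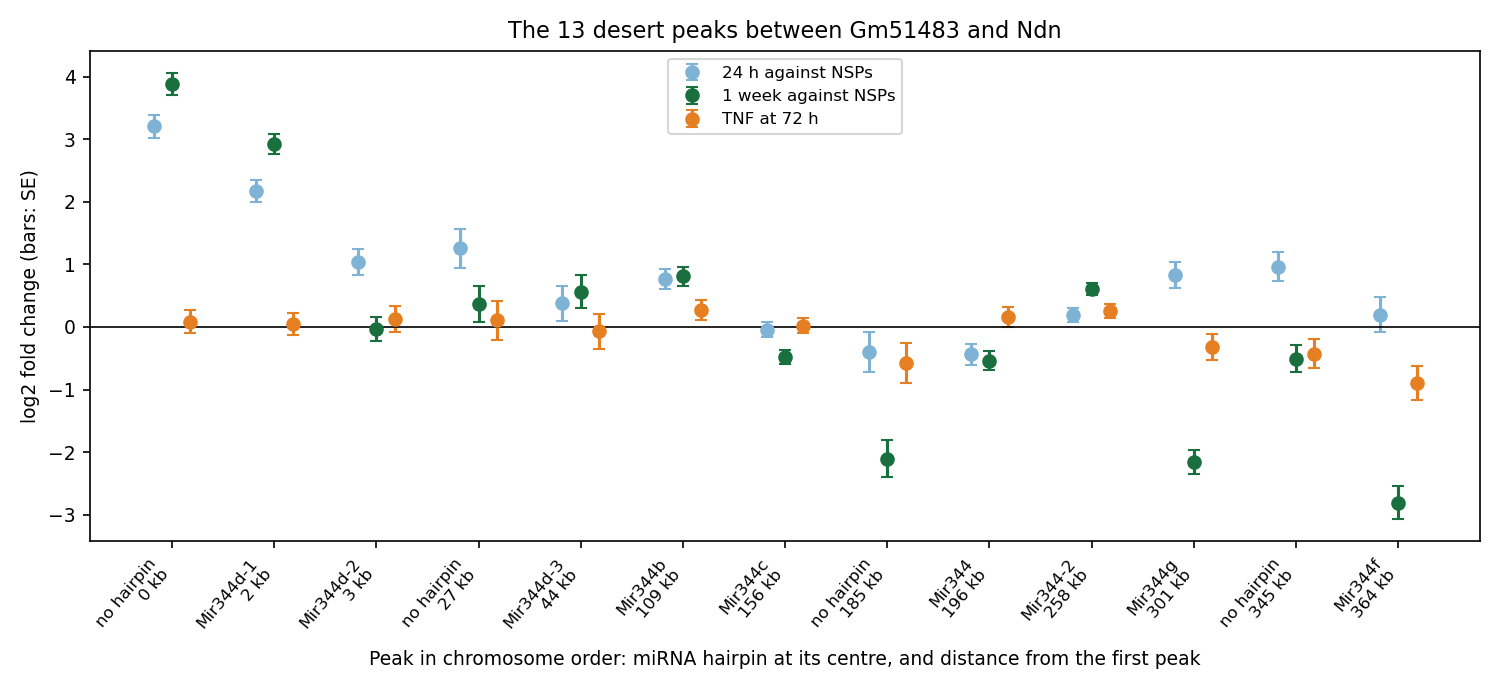
Log2 fold change with its SE at the 13 desert peaks between Gm51483 and Ndn, in chromosome order, for 24 h against NSPs (light blue), 1 week against NSPs (green) and TNF at 72 h (orange), with the hairpin at each peak and the distance from the first peak. The changes at 1 week run from 3.88 at the first peak to -2.81 on Mir344f, while TNF at 72 h changed only the peak on Mir344f.

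In the other miRNA deserts, TNF raised a peak inside Mir100hg, 9.26 kb from the hairpin of let-7a-2, from 115, 149 and 164 to 253, 280.1 and 248 at 24 h (0.88 ± 0.17, adjusted p = 9.1e-04) and from 225, 226 and 167 to 357, 347 and 336 at 72 h (0.76 ± 0.17, adjusted p = 0.0035), with no overlap at either time. The nearest peak to Mir125b-1, 1.04 kb away, fell at 24 h against NSPs from a mean of 225 to 136 (-0.72 ± 0.20, adjusted p = 0.0042), and that nearest to Mir100 had means of 45.9 and 36.7 (-0.51 ± 0.37, adjusted p = 0.26). Of the 15 members in Mir100hg, TNF raised 2 and lowered 0 at each time. A peak 16.9 kb from Mir7j, the hairpin of let-7j, went from 22.2, 19.3 and 14.0 in NSPs to 153, 158 and 163 at 24 h (3.05 ± 0.18, adjusted p = 5.1e-14) and was lower with TNF at 72 h, at 125, 118 and 122 against 248, 188 and 256 (-0.90 ± 0.18, adjusted p = 0.0012).

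Of the 27 members on promoter windows, 6 were higher and 7 lower at 24 h and 4 and 11 at 1 week against NSPs, where 24.2% and 23% of all peaks at 24 h and 33.7% and 33.6% at 1 week were called. The counts at 24 h lie near that background. The peak at Gm40604, in the desert between Nmbr and Cited2, held 6.43, 6.12 and 4.65 in NSPs, 45.5, 31.0 and 22.2 at 24 h, and 79.4, 72.5, 106 and 74.0 at 1 week (3.63 ± 0.30, adjusted p = 8.8e-12). The peak at Gm31592, between Tmpo and Nedd1, was lowered by TNF from 329, 369 and 294 to 203, 254 and 220.2 at 24 h (-0.55 ± 0.17, adjusted p = 0.033) and from 265, 281 and 264 to 163, 148 and 122 at 72 h (-0.91 ± 0.17, adjusted p = 4.6e-04). The strongest, at Gm33680, between Stxbp6 and Nova1, was steady over the course, with group means between 401 and 549, and fell with TNF at 24 h from 577, 549 and 521 to 429, 429 and 409 (-0.38 ± 0.11, adjusted p = 0.030). Members inside any non-coding gene (555 tested) had 176 higher (31.7%) and 83 lower calls (15.0%) at 24 h and 33.3% and 40.2% at 1 week, near the shares of all desert peaks (36.4% and 14.9%, and 36.4% and 39.8%).

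Members in 2 stretches shared a pattern across libraries. In the desert between Slc5a7 and St6gal2 on chromosome 17, 4 of 5 members (54709266, 54753366, 54896115 and 55083665) held 1 read in every 72 h and 1 week library and 62 to 433 reads in every NSP and 24 h library, with or without TNF. One read is the lowest value in the table, so no fold is given. The fifth, at 54667762, had 9 to 37 reads in the late libraries. These 4 are among 212 peaks of the whole table with 3 reads or fewer in every tagged and 20 or more in every untagged library, and the loss cannot be told apart from the tag. At the start of chromosome 9, 26 members lay within 35.0 kb (chr9:3000374-3035421), before the first protein-coding gene. Their summed value was 1172 in NSP replicate 1 against 261 and 353 in the other NSP libraries, 959 to 1405 at 24 h and 637 to 1457 with TNF, 1886 to 2609.6 at 72 h and 1135 to 2337 with TNF, and 1445 to 3039 at 1 week. Of the 17 tested, 9 had risen above NSPs by 24 h, 16 by 72 h and 15 by 1 week, where the tag holds as a limit.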

How the data were processed

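ATAC-seq libraries (19, in 6 groups) were sequenced with paired-end reads of 75 bp. Per the labels, the authors used FastQC, Trim Galore, Bowtie2 on mm10 (GRCm38), SAMtools and MACS2. The methods add HOMER, DiffBind and blacklist removal. Versions, the treatment of duplicates, the transposase shift and the normalisation are not given in the sources used here. The deposited table holds a normalised signal for 90154 peaks, nearly all 500 bp long. Within each library every value was a whole multiple of the value of 1 read (tolerance 0.01), so whole reads were recovered. Values are called normalised reads.

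Peaks were placed on the RefSeq annotation of GRCm38. Values were tested as log2(value + 1) with limma-trend (limma 3.58.1, R 4.3.3), 1 mean per group over all 19 libraries, after a filter on low reads (edgeR 4.0.16 filterByExpr, minimum count 10). Benjamini-Hochberg adjustment ran over all peaks tested and calls were made below 0.05. Fold changes are on the log2(value + 1) scale, which understates the change of low peaks. The fit was tested on simulated data. Alternatives were count models on the recovered reads (DESeq2 1.42.0 and the quasi-likelihood test of edgeR), total-read and loess scaling, other pseudocounts and filters, other distances, genes of every type, replicate blocks and leaving out each library.

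Named peaks were up to 3 per direction and comparison with the smallest p, the 6 highest means, the farthest peak, the highest mean in each of the 6 deserts with most peaks, and peaks with 3 reads or fewer in every 72 h and 1 week library and 20 or more in every other. Printed miRNAs and promoters were chosen after values were seen. The members and lists were chosen with earlier results of these data known. Deviations from the group means had correlations from -0.0307 to 0.1065 in same-numbered libraries and from -0.0661 to 0.062 in the others. In some comparisons every same-numbered pair lay above the others, as in 72 h against NSPs (0.0108 to 0.0168, others at most 0.0023). All these correlations were small, and numbers were not taken to pair the libraries.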

Additional observations from a re-analysis of the deposited data

Results flagged for a closer look

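At the desert peak chr3:35149124-35149624, between Sox2 and Atp11b, 1 of the 4 libraries at 1 week lay apart from the others. Replicate 4 held 84.7 normalised reads and the other 3 libraries 110 to 115, a gap of 0.854 of the whole range, above the 95% limit of Dixon's test for 4 values. Of 44 groups of values examined in this way 1 was picked out, and chance alone picks about 1 in 20.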

How the results depend on the processing

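Scaling to total reads changed the share of desert peaks called lower at 24 h against NSPs to 9.9%, and those of 1 week against 72 h to 9.31% higher and 37.3% lower. Loess offsets gave 12% lower in the latter. The group medians with total-read scaling were 51.1 in NSPs, 70.4 at 24 h, 68.8 with TNF, 60.5 at 72 h, 57.6 with TNF and 47.2 at 1 week. Counting genes of every type in the distance rule left 118 tested peaks, with 6.78% lower at 24 h, 9.32% lower at 24 h with TNF, 2.54% raised and 8.47% lowered by TNF at 24 h, and 29.7% higher at 1 week against 72 h. Fits on only the compared groups gave 10.7% lowered by TNF at 24 h, and 9.58% raised and 10.5% lowered at 72 h. The difference between the TNF effects was called at 2 desert peaks with DESeq2 and at 4 in the fit on only the compared groups.

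Leaving out 1 library gave 32.0 to 39.0% higher and 11.2 to 16.0% lower at 24 h, 32.2 to 37.4% and 16.0 to 19.4% at 24 h with TNF, 30.4 to 34.4% and 25.8 to 30.3% at 72 h, 29.5 to 34.0% and 29.1 to 32.1% at 72 h with TNF, and 33.6 to 36.7% and 36.9 to 39.9% at 1 week, all against NSPs. For TNF it gave 3.49 to 5.73% and 2.5 to 4.05% at 24 h and 4.24 to 5.26% and 4.05 to 4.77% at 72 h, and for 1 week against 72 h 14.4 to 16.5% and 14.3 to 19.8%.

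A replicate block by the number in the titles gave 36.5% higher and 15% lower at 24 h against NSPs and 6.52% and 6.15% for TNF at 72 h, and a block by the number in the library names gave 5.1% and 4.51% for the latter. Neither block moved a share by over 1.5 times. For the named peaks, 1018 of 1048 values under alternatives had the direction and side of the threshold reported, 10 lost and 19 gained a call, and 1 turned. That was chr15:62903024-62903524 at 1 week against NSPs, with 0.03 without NSP replicate 1 and -0.26 without NSP replicate 2. The causes of these changes were not tested.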
